A study of Mus musculus with 4 samples.

Results

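The Bcl2 family decides at the mitochondrion whether a cell survives or dies, and 10 of its genes were followed here through the cells of the mouse brain. The genes are Pmaip1, Bbc3, Bcl2l11, Bid, Bad, Bax, Bak1, Bcl2, Bcl2l1 and Mcl1, and all 10 were found by symbol among the 55487 genes of the files. They were chosen by earlier measured values from the same libraries, in which Pmaip1 had more UMIs (unique molecular identifiers, which tag single RNA molecules) in both libraries labelled EC-K4KO. Their differences between genotype labels are therefore given as a description, with no test.

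Single-cell RNA sequencing was run in droplets on brain cells from which endothelial cells had been enriched by sorting or another marker-based purification. There were 4 libraries, 1 for each combination of age group (young or old) and genotype label. Mice labelled WT Cre carried the Cdh5-Cre driver, and EC-K4KO mice carried the same driver together with Klf4-flox alleles, so that the driver is present in both genotypes and only the second is meant to lose Klf4. The Cdh5 promoter (the promoter of VE-cadherin) restricts the inducible Cre to endothelial cells, and the controls were littermates. The methods of the study describe tamoxifen for mice of both genotypes to induce Cre, while the labels state that no drug was given. Mice of both sexes are named in the labels, which do not give the number of mice behind a library. No group has a replicate library, so every interval given here is at the 95% level and covers the error of counting, while the spread from mouse to mouse is unknown.

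Proteins of this family fall into 3 groups. The BH3-only proteins sense damage or starvation and start the process: Noxa (Pmaip1), Puma (Bbc3), Bim (Bcl2l11), Bid and Bad. They bind the guardians Bcl-2 (Bcl2), Bcl-xL (Bcl2l1) and Mcl-1 (Mcl1), which otherwise hold the effectors Bax and Bak (Bak1) in check, and freed effectors open the outer mitochondrial membrane. Noxa binds mainly Mcl-1, and both Pmaip1 and Bbc3 are known targets of p53. The endothelium of the brain forms the blood-brain barrier, and Klf4 is a transcription factor that keeps endothelial cells quiescent and binds DNA at CACCC-type motifs.

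Promoters of 2 members are printed because the levels of both differed with age while their sequences differ in that motif. Each holds 250 bases before a RefSeq transcription start in GRCm38.p6, read 5′ to 3′ on the plus strand, and capitals mark CACCC or its complement GGGTG. The windows are chr7:16309333-16309582 for Bbc3, upstream of the first of its 3 starts, and chr3:95658471-95658720 for Mcl1.

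Bbc3: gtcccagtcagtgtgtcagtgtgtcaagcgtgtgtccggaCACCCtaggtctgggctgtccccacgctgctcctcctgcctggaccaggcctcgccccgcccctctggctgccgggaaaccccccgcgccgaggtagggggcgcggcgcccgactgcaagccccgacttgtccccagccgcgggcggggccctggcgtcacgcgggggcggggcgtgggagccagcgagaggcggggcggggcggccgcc
Mcl1: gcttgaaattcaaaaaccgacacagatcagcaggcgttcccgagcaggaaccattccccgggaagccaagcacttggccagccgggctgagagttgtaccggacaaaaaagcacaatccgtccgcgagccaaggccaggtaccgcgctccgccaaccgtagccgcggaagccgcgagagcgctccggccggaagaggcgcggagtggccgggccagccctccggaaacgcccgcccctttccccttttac

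The Bbc3 window held 1 match and the Mcl1 window 0. The 2 other windows of Bbc3 overlap each other and held 3 matches each. Over the 9 members with a window, 9 of 15 windows held the motif on either strand, and 52% of all 32851 promoter windows of this length did. A match describes the letters only and says nothing on binding, and no window of Pmaip1 was used here.

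Klf4, the targeted gene, went against the labels. In endothelial-like cells it lay at 1710 CPM (UMIs of the gene per 1000000 UMIs of these cells in a library) in the young and 2091 CPM in the old library labelled WT Cre, against 3277 CPM in the young and 3291 CPM in the old library labelled EC-K4KO. The log2 ratio of the EC-K4KO label over the WT Cre label was 0.94 (0.92 to 0.95) in young and 0.65 (0.63 to 0.68) in old mice. The values are counts per gene, so RNA outside a deleted part of Klf4 is counted too, and they do not check whether the allele was recombined. Nor can they show whether libraries were exchanged, which would turn the direction of every ratio between genotype labels given here. Measurements of Klf4 that the study made by other assays are not analysed here. The libraries are therefore named by their labels throughout.

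After filters, 20737 cells were kept (4146 to 6555 per library), and 98 barcodes occurred in 2 libraries. Cells were clustered without the 10 members, and 10 of 32 clusters passed the endothelial markers, 9 of these with all 9 markers and a small one led by Plvap and Gpihbp1 with 5 of 9. The order used for the libraries is young WT Cre, young EC-K4KO, old WT Cre, old EC-K4KO, and these held 2758, 3337, 2177 and 1911 endothelial-like cells. Their UMIs summed to between 10786977 and 43362800 per library, and the median depth per cell ran from 3772 UMIs in old EC-K4KO to 9861 UMIs in young EC-K4KO. Levels in CPM compare the same gene between libraries or cells, and are not compared between genes.

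Pmaip1 encodes Noxa, the BH3-only protein that binds Mcl-1. In endothelial-like cells young mice had 26.1 CPM (24.2 to 28.2) with the WT Cre label and 78.9 CPM (76.3 to 81.6) with the EC-K4KO label, and old mice had 54.2 CPM (50.6 to 58.0) with the first and 111 CPM (105 to 118) with the second. These levels rest on 674, 3423, 826 and 1199 UMIs, and no interval of 1 library overlaps that of another. The log2 ratio of the EC-K4KO label over WT Cre was 1.59 (1.47 to 1.72) for young mice and 1.04 (0.91 to 1.17) for old mice. Over the 8434 genes averaging 10 CPM or more, Pmaip1 took place 7 from the top in young mice and place 22 in old mice, places that would be counted from the bottom if libraries had been exchanged. The median log2 ratio of all these genes was −0.04 in young and −0.02 in old mice.

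**Figure D1:**
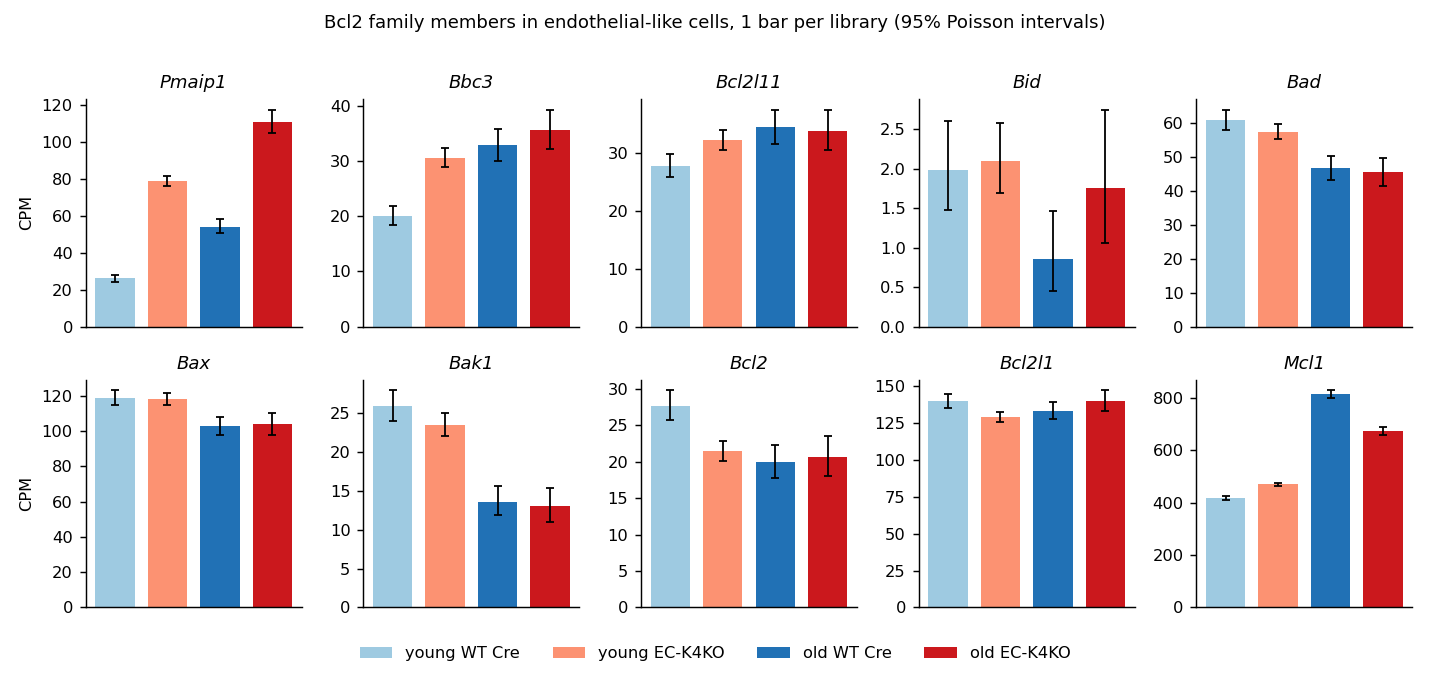
CPM (vertical axis, from 0, with its own scale per gene) of the 10 members summed over endothelial-like cells, 1 bar per library, with exact 95% Poisson intervals. Pmaip1 stands at 26.1, 78.9, 54.2 and 111 CPM, higher in the EC-K4KO label at each age, while Bak1 and Mcl1 separate the old libraries from the young ones.

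The Pmaip1 ratio kept its sign under the 15 alternative settings. Between the 2 young libraries (the young pair) it ran from 1.31 in cells with no UMI of the 5 erythroid markers to 1.88 in cells with no Fos UMI. Between the 2 old libraries (the old pair) it ran from 0.81 after each cell was thinned to 1000 UMIs to 1.31 in cells with no erythroid UMI. The small Plvap and Gpihbp1 cluster, of 12 to 30 cells per library, had 3 Pmaip1 UMIs in young WT Cre, 1 in old WT Cre and 0 in both libraries labelled EC-K4KO, too few to give a direction. Depth differs between the libraries, and among cells of 3000 to 12000 UMIs the levels were 33.0, 103, 72.8 and 139 CPM.

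The share of endothelial-like cells with a Pmaip1 UMI gave the same order of libraries. After thinning to 1000 UMIs per cell, it was 2.86% (2.27 to 3.56), 7.58% (6.71 to 8.53), 5.56% (4.63 to 6.60) and 9.89% (8.59 to 11.3), by exact Clopper-Pearson intervals. Unthinned, the shares were 14.4%, 36.2%, 20.6% and 27.8%, highest in young EC-K4KO, which was also the deepest library. Smooth muscle-like cells, in which Pmaip1 was near 0, set the background from free RNA at 0.204%, 0.216%, 0% and 0% of cells thinned, at median depths of 5490 to 9052 UMIs. A count of 0 allows a share of up to 0.524% in old WT Cre and 1.02% in old EC-K4KO (3 cells of each total), and the endothelial shares lay above the background in all 4 libraries. Cells with 2 or more Pmaip1 UMIs after thinning made up 0.218%, 0.989%, 0.689% and 1.36% of endothelial-like cells.

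Along the vascular tree, Pmaip1 was highest in capillary-like cells of every library. Capillary-like cells measured 34.9, 106, 92.3 and 183 CPM, arterial-like cells 10.9, 47.2, 14.6 and 39.9 CPM, and venous-like cells 4.47, 24.97, 21.4 and 51.5 CPM. In both young libraries the arterial-like level was above the venous-like level beyond the counting intervals, and in both old libraries these 2 segments overlapped. The log2 ratio between genotype labels was above 0 in each of these segments, at 1.60, 2.10 and 2.44 in young mice and 0.99, 1.44 and 1.27 in old mice, for capillary-like, arterial-like and venous-like cells. With age, venous-like cells gave log2 ratios of 2.22 (1.48 to 3.11) under the WT Cre label and 1.05 (0.73 to 1.36) under the EC-K4KO label. In arterial-like cells the intervals of the age ratios included 0, at 0.42 (−0.15 to 1.01) and −0.24 (−0.57 to 0.07). The venous-like cells form a single cluster that also passed 7 of 8 capillary markers, and differences between segments were not tested.

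**Figure D2:**
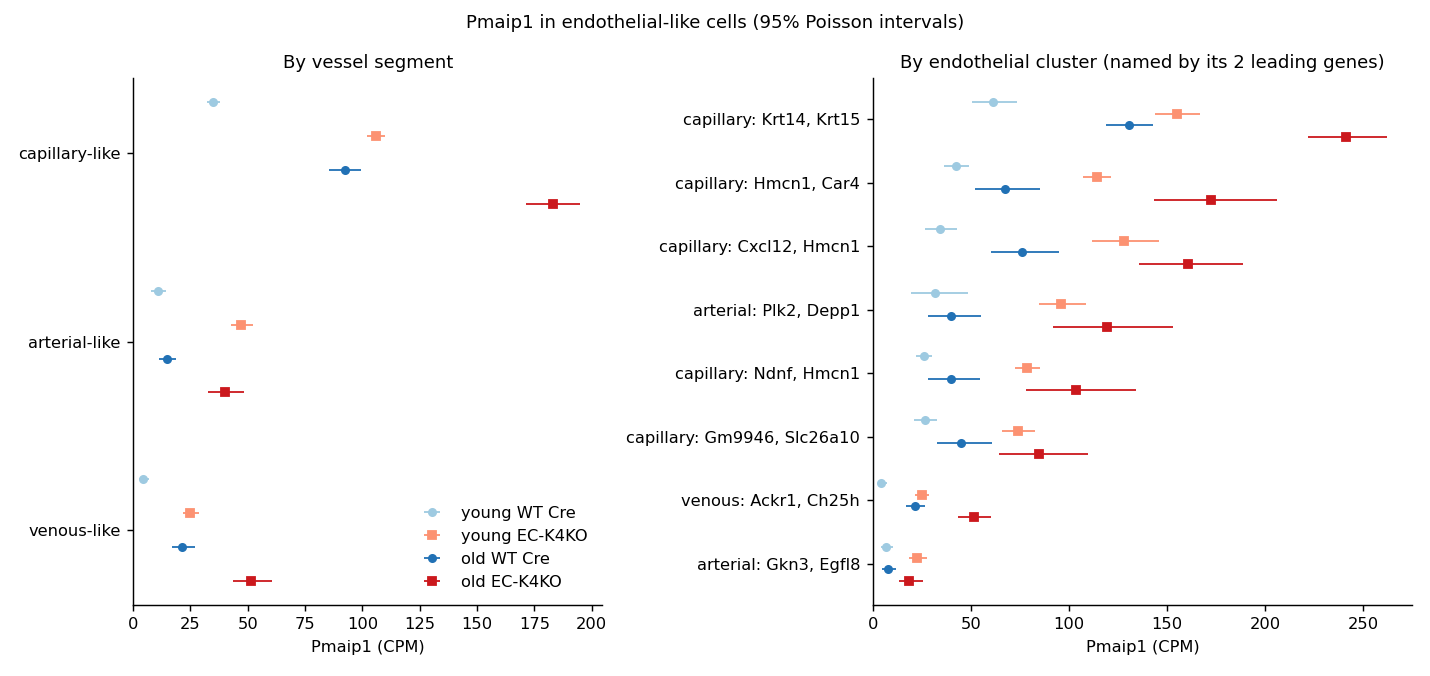
Pmaip1 in CPM (horizontal axis) by vessel segment (left) and by endothelial cluster named after its 2 leading genes (right), 1 point per library with exact 95% Poisson intervals. In all 8 clusters shown the EC-K4KO label (squares) lies to the right of the WT Cre label (circles) of the same age, and the Krt14 and Krt15 cluster reaches 242 CPM in old EC-K4KO.

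The difference between genotype labels was present within clusters. In all 8 endothelial clusters with at least 50 cells in each library, Pmaip1 was higher under the EC-K4KO label at both ages, with intervals off 0, with ranges of the log2 ratio from 1.33 to 2.44 in young and from 0.89 to 1.57 in old mice. A capillary-like cluster led by Krt14, Krt15, Ankrd37 and Adm had the highest level of these 8 in every library, at 61.4, 155, 131 and 242 CPM, and Pmaip1 was among its 10 leading genes. This cluster made up 7.47% and 10.8% of endothelial-like cells in the young libraries and 30% and 27.5% in the old ones. The arterial-like cells split into a cluster led by Gkn3 and Egfl8, at 6.75, 22.7, 7.79 and 18.6 CPM, and one led by Plk2 and Depp1, at 31.8, 96.2, 40.0 and 120 CPM. The second of these also passed 6 of 8 capillary markers.

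Other brain cells carried Pmaip1 too, mainly phagocytes. Border macrophage-like cells measured 93.8 (69.9 to 123), 96.5 (79.5 to 116), 69.4 (50.8 to 92.6) and 56.2 CPM (34.4 to 86.8), intervals that overlap each other. Microglia-like cells measured 37.8, 32.5, 49.4 and 44.4 CPM, with log2 ratios between genotype labels of −0.22 (−0.65 to 0.22) in young and −0.15 (−0.46 to 0.15) in old mice. In both phagocyte classes the interval of the genotype ratio included 0 at each age, while in endothelial-like cells it lay above 0. T or NK-like cells held 3 to 10 Pmaip1 UMIs per library, at 14.4, 35.1, 17.8 and 51.1 CPM with wide intervals. Pericyte-like cells had 1 Pmaip1 UMI in all 4 libraries together, smooth muscle-like cells ran from 0.279 to 2.17 CPM and astrocyte-like cells reached at most 1.32 CPM.

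**Figure D3:**
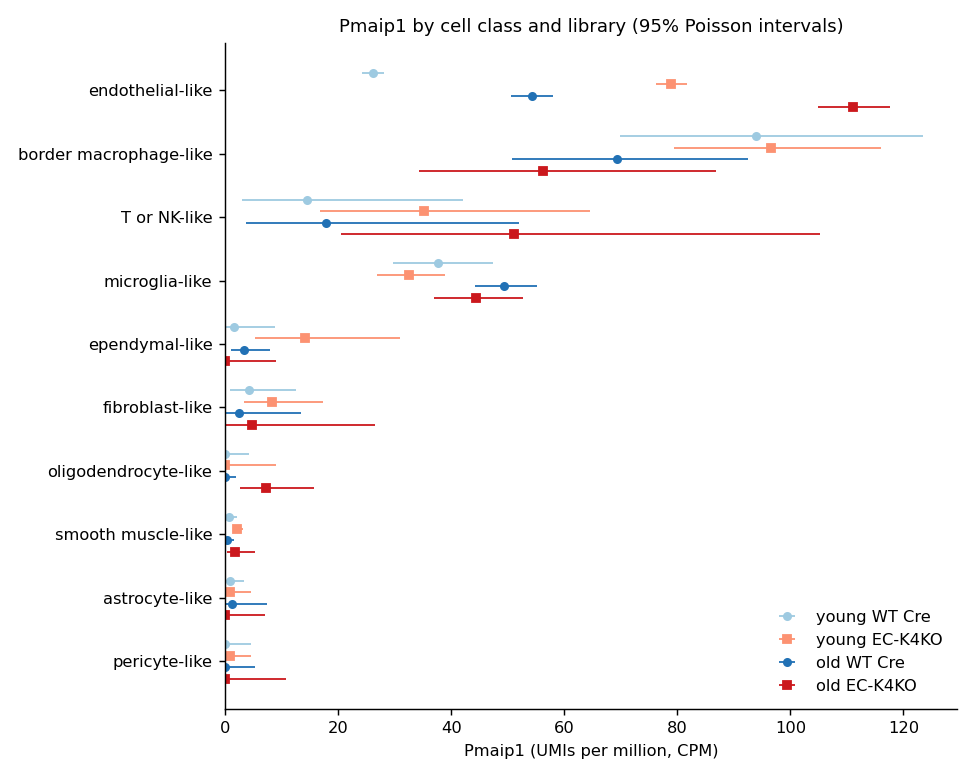
Pmaip1 in CPM (horizontal axis) in 10 cell classes, 1 point per library with exact 95% Poisson intervals. The 4 libraries separate in endothelial-like cells, overlap in border macrophage-like cells and lie near 0 in mural and most glial cells.

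Bbc3 encodes Puma, which binds all guardians. It measured 20.1 CPM (18.4 to 21.9), 30.6 CPM (29.0 to 32.3), 32.9 CPM (30.1 to 35.9) and 35.6 CPM (32.1 to 39.3) in the order of libraries given above. Young WT Cre was the lowest library, and the intervals of the other 3 overlapped. The log2 ratio between genotype labels was 0.61 (0.46 to 0.76) in young and 0.11 (−0.08 to 0.31) in old mice. In capillary-like cells Bbc3 was at 20.3, 31.3, 37.6 and 45.5 CPM, lowest in young WT Cre and highest in old EC-K4KO, as Pmaip1 was.

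Of the 9 members averaging 10 CPM or more, 2 were higher by 1.5-fold or more under the EC-K4KO label in the young pair (Pmaip1 and Bbc3), where 1.38% of all genes were, and 0 were lower, where 1.13% of all genes were. Among cells with no Fos UMI the young pair still had 2 members past that margin, but Bbc3 at 0.46 (0.02 to 0.90) was no longer one of them and Bcl2 at −0.86 (−1.27 to −0.48) was. In the old pair 1 member was higher (Pmaip1), against 1.43% of all genes, and 0 were lower, against 1.28%. Pmaip1 was the only one of the 9 higher at both ages, as were 0.474% of all genes, and 0 of the 9 were lower at both ages, as were 0.462% of all genes. These counts come from the contrast that chose the members.

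Bcl2l11 encodes Bim, which is induced when growth factors are withdrawn. Over all endothelial-like cells it varied little, at 27.9, 32.3, 34.5 and 33.9 CPM. The log2 ratio between genotype labels was 0.21 (0.08 to 0.35) in young and −0.02 (−0.22 to 0.17) in old mice. With age under the EC-K4KO label it was 0.07 (−0.10 to 0.24), but −0.59 (−1.13 to −0.11) in cells with no Fos UMI. Within clusters the genotype ratio was above 0 in 8 of 8 in the young pair and in 5 of 8 in the old pair. In none of the 8 did its interval lie off 0. Over all capillary-like cells the young ratio was 0.25 (0.08 to 0.41).

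Bad, which is inactivated by survival kinases, lay at 60.9, 57.4, 46.7 and 45.5 CPM, so that both young libraries were above both old ones. Its genotype ratios were −0.09 and −0.04. Bid, which links death receptors to the mitochondrion, was scarce in endothelial-like cells, with 51, 91, 13 and 19 UMIs or 1.98, 2.10, 0.853 and 1.76 CPM. Its log2 ratio in the old pair, 1.03 (−0.05 to 2.18), could not be told from 0 at this depth. Bid was highest in microglia-like cells, at 22.1 to 35.3 CPM.

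The 2 effectors differed little between genotype labels over all endothelial-like cells. Bax, which moves to the mitochondrion when activated, measured 119, 118, 103 and 104 CPM, with genotype log2 ratios of −0.01 (−0.07 to 0.06) and 0.01 (−0.10 to 0.12). The young ratio turned its sign in 6 of 15 alternative settings (0.04 with TMM factors) and the old ratio in 8. In cells with no Fos UMI the old ratio was −0.34 (−0.63 to −0.06). No direction is given for either ratio. Bak1, which sits in the outer mitochondrial membrane, measured 25.9 CPM (24.0 to 28.0), 23.5 CPM (22.1 to 25.01), 13.7 CPM (11.9 to 15.6) and 13.1 CPM (11.003 to 15.4). Its young and old intervals did not overlap, and both pairs of the same age did.

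Among the guardians, Bcl2 was lower in young EC-K4KO than in young WT Cre, at 21.5 against 27.7 CPM, a log2 ratio of −0.37 (−0.51 to −0.22). The old libraries lay at 19.96 and 20.7 CPM, with a log2 ratio of 0.05 (−0.21 to 0.31). In the young pair capillary-like cells had 25.2 against 34.0 CPM, arterial-like cells had 17.7 against 16.2 CPM, and venous-like cells 11.5 against 8.68 CPM. T or NK-like cells had the highest Bcl2, at 298 to 456 CPM. Bcl2l1, which encodes Bcl-xL, stayed between 129 and 140 CPM, with genotype log2 ratios of −0.12 (−0.18 to −0.06) and 0.07 (−0.03 to 0.17).

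Mcl1, the short-lived guardian that Noxa targets, had opposite genotype ratios in the young and old pairs over all endothelial-like cells. Young mice had 418 CPM (410 to 426) with the WT Cre label and 470 CPM (463 to 476) with the EC-K4KO label, against 814 CPM (799 to 828) and 672 CPM (657 to 688) in old mice. The genotype log2 ratio was 0.17 (0.13 to 0.20) in young and −0.28 (−0.32 to −0.23) in old mice. The opposite directions did not hold in every set of cells. Among cells with no erythroid UMI, of which young EC-K4KO had 73, the ratios were −0.08 (−0.33 to 0.15) and −0.26 (−0.32 to −0.19), and among cells with no Fos UMI they were 0.06 (−0.04 to 0.16) and −0.19 (−0.33 to −0.06). Its sign in the old pair was negative in capillary-like (−0.28), arterial-like (−0.17) and venous-like cells (−0.40), and the interval lay below 0 in 5 of 8 clusters. Both old libraries were above both young ones in each segment, for example at 441, 463, 900 and 680 CPM in venous-like cells. Microglia-like cells had the same order of ages, at 793, 677, 1262 and 1199 CPM. A cluster led by Tnf and Ccl3 held 65, 94, 832 and 394 of these cells. One led by P2ry12 and Gpr34 held 262, 480, 359 and 195, and Mcl1 was not measured in each apart.

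**Figure D4:**
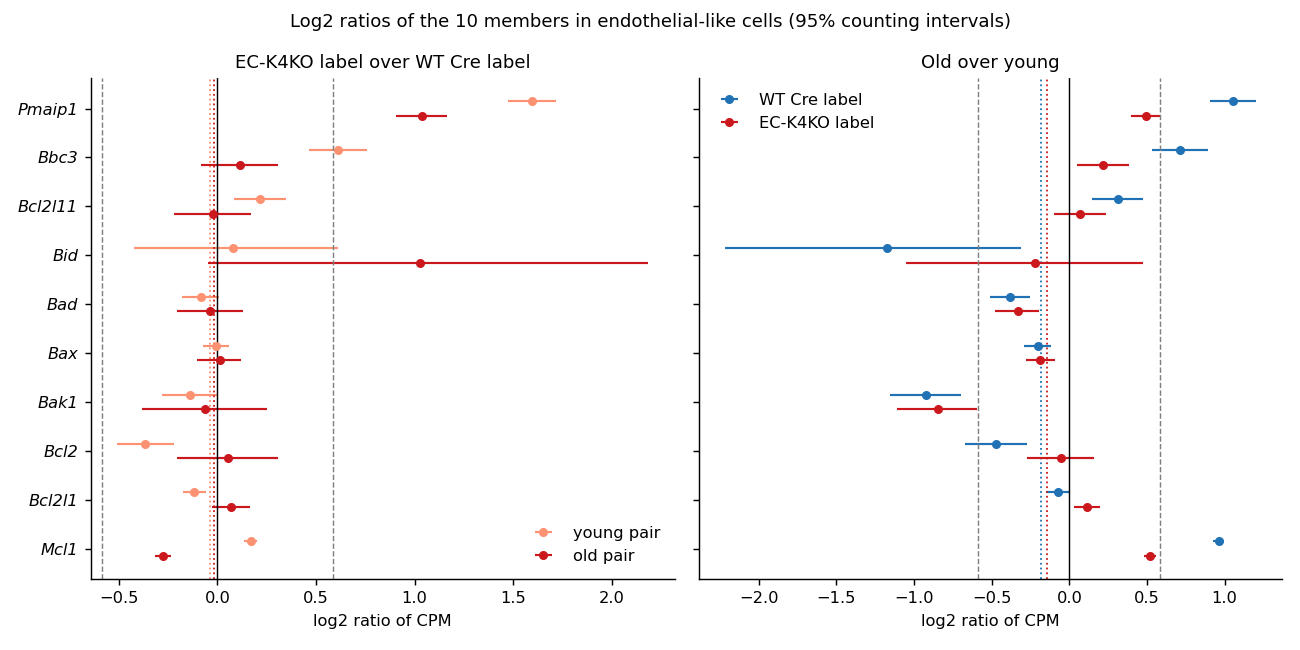
Log2 ratios of CPM (horizontal axis) for the 10 members in endothelial-like cells, between genotype labels (left) and between ages (right), with exact 95% counting intervals. Dashed lines mark 1.5-fold and dotted lines the median of all genes. Pmaip1 has the highest genotype ratio of the 9 members above 10 CPM at both ages (1.59 and 1.04), and Bak1 has the lowest age ratio of these 9 under both labels (−0.92 and −0.84).

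Age was tested across the 4 libraries, old against young with the genotype label as a second term, by the quasi-likelihood test of edgeR on all genes. Pmaip1, Bbc3 and Mcl1 were higher in old mice and Bak1 was lower, so 3 and 1 of the 10 members passed, where 10.7% and 6.73% of 14950 genes did. The log2 difference of Pmaip1 was 0.90 with an edgeR adjusted p of 0.00298, and its level was higher in the old library under both labels. Mcl1 rose by 0.89 (edgeR adjusted p = 0.00233), Bbc3 rose by 0.61 (edgeR adjusted p = 0.0184), and Bak1 fell by 0.74 (edgeR adjusted p = 0.00349), each in the same direction under both labels. Bcl2l11 at 0.34 (edgeR adjusted p = 0.0541) and Bad at −0.21 (edgeR adjusted p = 0.0788) did not pass. Over 10 alternative settings Bcl2l11 passed in 4 (lowest adjusted p 0.0279) and Bad in 1 (adjusted p = 0.0470 with no filter on low counts). The edgeR adjusted p was 0.158 for Bcl2l1, 0.326 for Bid, 0.525 for Bcl2 and 0.653 for Bax. The test sets 2 libraries against 2 with 1 residual degree of freedom, and the tool borrows the rest of the spread from other genes.

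The age calls of Pmaip1 and Bbc3 depended on the Krt14 and Krt15 cluster, and those of Mcl1 and Bak1 did not. Without its cells the edgeR log2 difference was 0.37 for Pmaip1 (adjusted p = 0.0602) and 0.43 for Bbc3 (adjusted p = 0.0736), against 0.81 for Mcl1 (adjusted p = 0.00957) and −0.75 for Bak1 (adjusted p = 0.00904). With age as the only term the edgeR adjusted p was 0.419 for Pmaip1 and 0.159 for Bbc3, and over 10 alternative settings it ran from 1.98e-20 to 0.419 and from 1.75e-06 to 0.159, with 8 and 7 settings passing. Within clusters, Pmaip1 was higher in the old WT Cre library in 8 of 8, with 6 intervals above 0, and in the old EC-K4KO library in 7 of 8, with 4 intervals above 0. Levels without that cluster were 23.3, 70.2, 30.9 and 75.2 CPM.

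Age ratios within a label describe the same libraries. Under the WT Cre label Pmaip1 (1.05), Mcl1 (0.96) and Bbc3 (0.71) were higher by 1.5-fold or more, where 4.26% of 8434 genes were, and Bak1 (−0.92) was lower, where 6.79% were. Without the Krt14 and Krt15 cluster Pmaip1 fell inside that margin, at 0.41. Under the EC-K4KO label 0 members were higher by that margin, where 4.21% of genes were, and Bak1 (−0.84) was lower, where 5.68% were. Mcl1 at 0.52 (0.48 to 0.56) and Pmaip1 at 0.49 (0.40 to 0.59) lay just inside the margin, and with TMM factors they were past it, at 0.65 and 0.63, so that 2 members were higher. The median of all genes was −0.18 and −0.15, and scaling by TMM factors added 0.16 and 0.13 to every log2 age ratio, which turns Bcl2l1 under the WT Cre label (−0.07 to 0.09) and Bcl2 under the EC-K4KO label (−0.05 to 0.08). Comparisons by label and by age share libraries, so that a low value in young WT Cre enters both.

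Among other genes of the pathway, none of 52 averaging 10 CPM or more passed 1.5-fold between genotype labels at either age. At the shares of all genes given above, fewer than 1 of 52 would be past that margin in each direction, so the count of 0 is near the background. These were 6 further Bcl2 family genes, 15 of p53 and its targets, 7 other regulators of BH3-only genes, 17 of caspases, apoptosome and inhibitors, 3 channels of the outer mitochondrial membrane and 4 of Mcl1 turnover. Median log2 ratios of these lists ran from −0.05 to 0.09 in young and from −0.03 to 0.10 in old mice. Trp53 itself was level at 70.4, 69.7, 69.1 and 70.8 CPM, and Mdm2, the ligase that p53 induces against itself, lay at 46.4, 47.3, 44.5 and 50.1 CPM. Cdkn1a, the cell cycle inhibitor p21 and a target of p53, was higher in both old libraries, at 783, 817, 1436 and 1290 CPM. Between labels it differed by less than 1.5-fold, higher under EC-K4KO in young and lower in old mice. In capillary-like cells it measured 720 (708 to 733), 768 (758 to 779), 1287 (1262 to 1313) and 1169 CPM (1140 to 1199).

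With age, 6 of these 52 genes were higher by 1.5-fold or more and 3 lower under the WT Cre label, beside 4.26% and 6.79% of all genes, and 4 were higher and 4 lower under the EC-K4KO label, beside 4.21% and 5.68%. Of the p53 list, Tnfrsf10b, a death receptor, had a log2 ratio of 1.14 and Cdkn1a 0.87 under the WT Cre label, Fas 0.67 and Cdkn1a 0.66 under the EC-K4KO label, and Sesn1 was lower under both (−0.72 and −0.87). The list medians, −0.04 and 0.08, stayed near 0. Ddit3, the stress factor CHOP, was higher under both labels (0.82 and 0.96) and Atf3 under WT Cre (1.03). Of the caspase list, Birc3, an inhibitor of apoptosis, was higher under both labels (0.67 and 0.80), Casp2 was lower under both (−0.74 and −0.76) and Tradd was lower under WT Cre (−0.79). Bok, a relative of Bax, was lower under EC-K4KO (−0.66), and none of the channel and Mcl1 turnover lists passed.

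Other measures moved with the genotype labels beside Pmaip1. Early response genes, which dissociation can induce, had a median log2 ratio of 0.41 over 14 genes in the young pair, with Fos (0.84), Klf6 (0.72) and Zfp36 (0.69) past 1.5-fold, and of −0.19 with none past it in the old pair. In cells with no Fos UMI, Pmaip1 was at 20.4, 75.1, 52.2 and 98.8 CPM. All 4 erythroid markers averaging 10 CPM or more were higher under the EC-K4KO label at both ages, past 1.5-fold for 4 in young and 3 in old mice, with sums of 378, 687, 433 and 706 CPM, and Pmaip1 in cells without their UMIs was at 27.3, 67.0, 48.0 and 119 CPM on 86, 30, 271 and 507 UMIs. Stmn2, which is on the neuron marker list and is also a leading gene of the Gkn3 and Egfl8 cluster, was lower under the EC-K4KO label at both ages, at 155, 41.9, 308 and 96.1 CPM. The other 5 neuron markers, Snap25 among them, had at most 10.2 CPM in any library and were each higher in young EC-K4KO than in young WT Cre. Ttr, a marker of choroid plexus, was lower under the EC-K4KO label at both ages, at 72.5, 14.7, 284 and 132 CPM, and the part of these genes in the Pmaip1 ratio was not tested. Oligodendrocyte markers summed to 188, 66.4, 168 and 143 CPM, with Mbp at 154, 51.5, 129 and 119 CPM. Smooth muscle markers summed to 73.0, 140, 104 and 29.9 CPM, pericyte markers to 127, 186, 159 and 56.5 CPM and neutrophil markers to 4.31, 4.04, 8.01 and 175 CPM, moving differently in the young and old pairs. The cluster of neutrophil-like cells itself held 11, 36, 35 and 251 cells.

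Some of these measures also moved with age. Of the 14 early response genes, 6 were higher by 1.5-fold or more under the WT Cre label (median log2 ratio 0.35, Ier3 2.12), and 2 were higher and 1 lower under the EC-K4KO label (median −0.01, Ier3 1.69). Pf4, a marker of border macrophages, was at 8.88, 11.6, 24.2 and 29.7 CPM, with log2 age ratios of 1.44 and 1.36, and Ttr had age ratios of 1.97 and 3.17. The part of these genes in the age differences of the members was not tested.

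The genes whose level was most like that of Pmaip1 over 10 cell classes in 4 libraries were Gm8995 (r = 0.90), Srgn (r = 0.89), Ly6e (r = 0.88), Tm6sf1 (r = 0.88) and Gch1 (r = 0.88), by Pearson correlation of log2(CPM + 1) over 40 values and 7357 genes. Mcl1 had r = 0.70 there, at place 187. Over 3 vessel segments in 4 libraries, 12 values and 6311 genes, they were Clip1 (r = 0.92), Gimap6 (r = 0.92), Nbeal1 (r = 0.91), Ccng2 (r = 0.89) and Pcmt1 (r = 0.87), and Bbc3 stood at place 27 with r = 0.78. Values of a library share its depth and free RNA, so these correlations describe the libraries and carry no p.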

How the data were processed

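The deposited values are raw counts of UMIs for each gene in each barcode. The file headers name Cell Ranger 6.0.2 as the tool the authors used. The submitters' processing notes also name Seurat and the builds mm10 and GRCm38, without a role. Each library came as a matrix of counts with its gene names and cell barcodes, and the barcodes had been limited to cells before deposit, with at least 500 UMIs each. Library sums ran from 30655769 to 88812581 UMIs over 5324 to 8358 barcodes. Ddit3 is listed under 2 identifiers, and the one with UMIs was used.

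A barcode was kept if it had 500 genes or more, 1000 UMIs or more and no more than 10% of UMIs from mitochondrial genes, a limit that 10.6% to 16.3% of barcodes per library failed. Scrublet marked 39 to 150 barcodes per library by its automatic threshold, and instead the highest scores were removed at 0.8% per 1000 barcodes (147 to 385). Leiden clustering at resolution 1 used 20 neighbours in 30 principal components of 2000 variable genes (scanpy 1.11.5, leidenalg 0.10.2, Python 3.11.15), and 28 of 32 clusters were named from marker lists. The names are rebuilt ones and can differ from those of the study.

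UMIs were summed per library over each class. Levels carry exact Poisson intervals, and log2 ratios, with 0.5 UMIs added, carry exact conditional binomial intervals (scipy 1.17.1). UMIs of endothelial-like sums were also fitted with edgeR 4.0.16 (R 4.3.3; TMM, quasi-likelihood, genotype label and age as terms, Benjamini-Hochberg over all genes, threshold 0.05), after the fit had been tested on simulated data. DESeq2 1.42.0, other scalings, cell filters, doublet settings, weightings and classes were tried as alternatives, and sets without a cluster, without Fos or erythroid UMIs, of capillary-like cells or of matched depth were added after seeing the data.

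The members and gene lists were chosen with earlier results of these data known. All 10 members are named; from each other list, genes past 1.5-fold are named, up to the 3 highest and 3 lowest per comparison, together with Trp53, Mdm2 and Fos, which were chosen after their values were seen. Some genes of these lists are not reported here. Promoters are RefSeq sequences of GRCm38.p6, the build named in the notes. No promoter or protein sequence of Pmaip1 was used.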

Additional observations from a re-analysis of the deposited data

Results flagged for a closer look

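Over all endothelial-like cells Mcl1 had opposite genotype ratios at the 2 ages. Its log2 ratio of the EC-K4KO label over WT Cre was 0.17 (0.13 to 0.20) in young and −0.28 (−0.32 to −0.23) in old mice, with both counting intervals off 0. Among cells with no erythroid UMI the ratios were −0.08 (−0.33 to 0.15) and −0.26 (−0.32 to −0.19), so the directions were no longer opposite there, and among cells with no Fos UMI the young interval included 0, at 0.06 (−0.04 to 0.16). Within the 8 endothelial clusters with at least 50 cells in each library, the young ratio was above 0 in 8, with 4 intervals above 0, and the old ratio was above 0 in 1, with 5 intervals below 0. Each ratio sets 1 library against 1, so the difference between the ages was not tested. The early response genes moved along with it, with a median log2 ratio of 0.41 in the young and −0.19 in the old pair, and their part in the Mcl1 values was not tested.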

How the results depend on the processing

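No paired analysis was possible because each combination of age and genotype label holds 1 library, and leaving out a library leaves no residual degree of freedom for the age test. The 10 alternatives of the age test gave the same call for 90 of 100 member values, made 5 new calls and lost 5. The number of members passing, 4, became 2 with age as the only term and 2 without the Krt14 and Krt15 cluster, 3 with DESeq2, 6 with no filter on low counts, and 5 each with a stricter cell filter, with no doublet removal and with classes set by marker UMIs. Over all genes, 1594 higher and 1006 lower calls became 610 and 200 with age alone, 707 and 195 with DESeq2, 1868 and 1985 with no filter on low counts, 917 and 476 in capillary-like cells, and 1260 and 640 without that cluster. The members past 1.5-fold between genotype labels in the young pair, 2, became 1 with the unnamed endothelial clusters added and 1 among members of at least 50 CPM. It stayed at 2 in cells with no Fos UMI with other members (Bbc3 at 0.46 left, Bcl2 at −0.86 entered lower), and became 3 after thinning, with Bcl2 at −0.67. In the old pair 1 became 2 in cells with no Fos UMI. With age under the WT Cre label, 4 (1 lower) became 2 in cells with no Fos UMI, 2 at 50 CPM and 6 (3 lower, with Bad and Bcl2) in cells with no erythroid UMI. Without the Krt14 and Krt15 cluster Pmaip1 was no longer past the margin there, at 0.41. Under the EC-K4KO label 1 (0 higher) became 3 with TMM factors and 3 with median-of-ratios size factors (2 higher in each), 3 in cells with no erythroid UMI, 2 in capillary-like cells, 2 in cells of 3000 to 12000 UMIs, 2 in cells with no Fos UMI and 0 at 50 CPM. Of the ratios past 1.5-fold, 1 turned its sign: Bbc3 with age under the WT Cre label was −0.17 in cells with no Fos UMI, and the cause was not tested. Over all 40 ratios, 60 of 600 alternative values had another sign, from 19 ratios, and the other 18 had been under 1.5-fold. Their counting interval had excluded 0 in 5 of the 18: Bbc3 with age under EC-K4KO (−0.006 thinned), Bcl2l11 with age under WT Cre (−0.11 with no Fos UMI), Bcl2l1 between the young labels and with age under EC-K4KO (0.02 and −0.01 at 3000 to 12000 UMIs), and Mcl1 between the young labels (−0.08 with no erythroid UMI). Of 600 log2 ratios of members, 476 moved by less than the counting interval and 123 by more. All 40 shares of cells with a UMI moved without thinning. Depth limits Bid in endothelial-like cells, at 13 to 91 UMIs.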

Other observations

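Clusters left unnamed carried Pmaip1 as well. A cluster with both endothelial and erythroid markers, led by Hba-a1, Hba-a2 and Hbb-bs, measured 20.9 CPM (15.1 to 28.2) in young WT Cre, 69.2 CPM (63.4 to 75.3) in young EC-K4KO, 51.6 CPM (41.2 to 63.8) in old WT Cre and 79.0 CPM (63.3 to 97.5) in old EC-K4KO. A cluster with endothelial and B-lineage markers, led by Igkc and Jchain, measured 27.9, 99.99, 36.8 and 40.0 CPM on 5, 51, 10 and 14 UMIs. A cluster led by Cst7 and Clec7a with 2 of 7 microglial markers held most of its cells in the old libraries, where Pmaip1 was at 33.7 and 40.5 CPM. Granulocyte precursor genes (Prtn3, Elane) led the last one, with 19.2 CPM in old EC-K4KO, where 117 of its 172 cells lay.

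Neutrophil-like cells numbered 11, 36, 35 and 251 and carried Pmaip1 at 35.5, 77.1, 46.1 and 23.0 CPM on 3 to 25 UMIs.

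Bmf, a BH3-only gene under 10 CPM that was chosen after its values were seen, lay at 4.69, 8.72, 3.48 and 6.58 CPM in endothelial-like cells, higher under the EC-K4KO label at both ages (log2 ratios of 0.89 and 0.92). Gdf15, a stress cytokine and p53 target chosen the same way, separated the ages, at 1.75, 3.69, 16.5 and 17.6 CPM.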
